A study of Mus musculus with 2 samples.

Results

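Endothelins are small vasoactive peptides of the vessel wall, and their ligands, receptors and converting enzymes were examined here in endothelium of the normal mouse brain. The members were all probe sets annotated to a single gene among Edn1, Edn2, Edn3, Ednra, Ednrb, Ece1 and Ece2. There were 14 such probe sets of 45101 on the array, and they covered 6 of the 7 genes, because the annotation lists no probe set for Ednra. The CD31+ Prom1+ and the CD31+ Prom1- fraction of brain vessels from C57BL/6 mice were separated by flow cytometry with antibodies to Prom1 and to CD31, and each was hybridized to 1 Affymetrix Mouse Genome array. Neither fraction carried a tumor or a treatment, and no source used here gives the age or number of the animals. The comparison addresses which signaling factors differ between Prom1+ and Prom1- endothelium.

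The single array of each population leaves the error between replicates unknown, so every fold below lacks a replicate check and none carries a p-value. The study also reports quantitative PCR for some of its factors, and its primer list includes Edn1 and Edn3. Those PCR values were not used here. All signals are given as multiples of the median of their own array. Signals under a floor of 1.67 times the median were raised to the floor before a fold was taken, a fold with 1 such signal is written as "at least", and probe sets with both signals under the floor have none. Signals of different probe sets are not set against each other, since probes differ in how strongly they bind. The sort marker Prom1, read from 1 probe set, had a signal of 159 in cells labelled Prom1+ and of 196 in cells labelled Prom1-. It lies at a mean log2 signal of 7 to 8, where 2-fold differences were rare. In that range 0.0% of probe sets were higher by 2-fold or more in Prom1+ endothelium and 2.6% were lower. The log2 ratio of Prom1 was -0.3, beside a median of -0.23 for all probe sets in that range. The arrays thus do not show more Prom1 transcript in the cells labelled Prom1+. The reason was not tested, and the populations are named by their labels. Pecam1, the gene of CD31, had a signal of 69.2 in Prom1+ endothelium, against 48.2 in Prom1- endothelium. Background was read from the 27 controls of Bacillus sequence, the brightest of which had a signal of 0.234 on the Prom1+ array and of 0.276 on the Prom1- array.

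Endothelins are made as long precursors. The protease furin trims each precursor to an inactive big endothelin, and the membrane metalloproteases endothelin converting enzyme 1 and 2 then release the active peptide. The receptor encoded by Ednra sits mainly on smooth muscle and pericytes, where it drives constriction, and it binds endothelin 3 more weakly than the other ligands. The receptor encoded by Ednrb binds every endothelin alike, removes the peptide from the circulation, triggers release of nitric oxide from endothelium, and is also found on astrocytes.

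The ligand and enzyme transcripts that differed by the 2-fold rule were higher in Prom1+ endothelium, and the receptor transcript that differed was lower. Of the 14 probe sets, 10 were over the floor on each array and 4 were under it on both. Among the 10, 6 were higher by 2-fold or more in Prom1+ endothelium, namely those of Edn1, all 4 of Edn3 and 1 of Ece2. A single probe set, of Ednrb, was lower by 2-fold or more, and the 3 of Ece1 differed by less. Of all 21966 probe sets above the floor on at least 1 array, 26.4% were higher by 2-fold or more and 5.16% lower by 2-fold or more. The median log2 ratio of the 10 was 1.19, against 0.60 for all these probe sets. The 4 probe sets of Edn3 measure the same transcript and are not independent of each other.

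**Figure D1:**
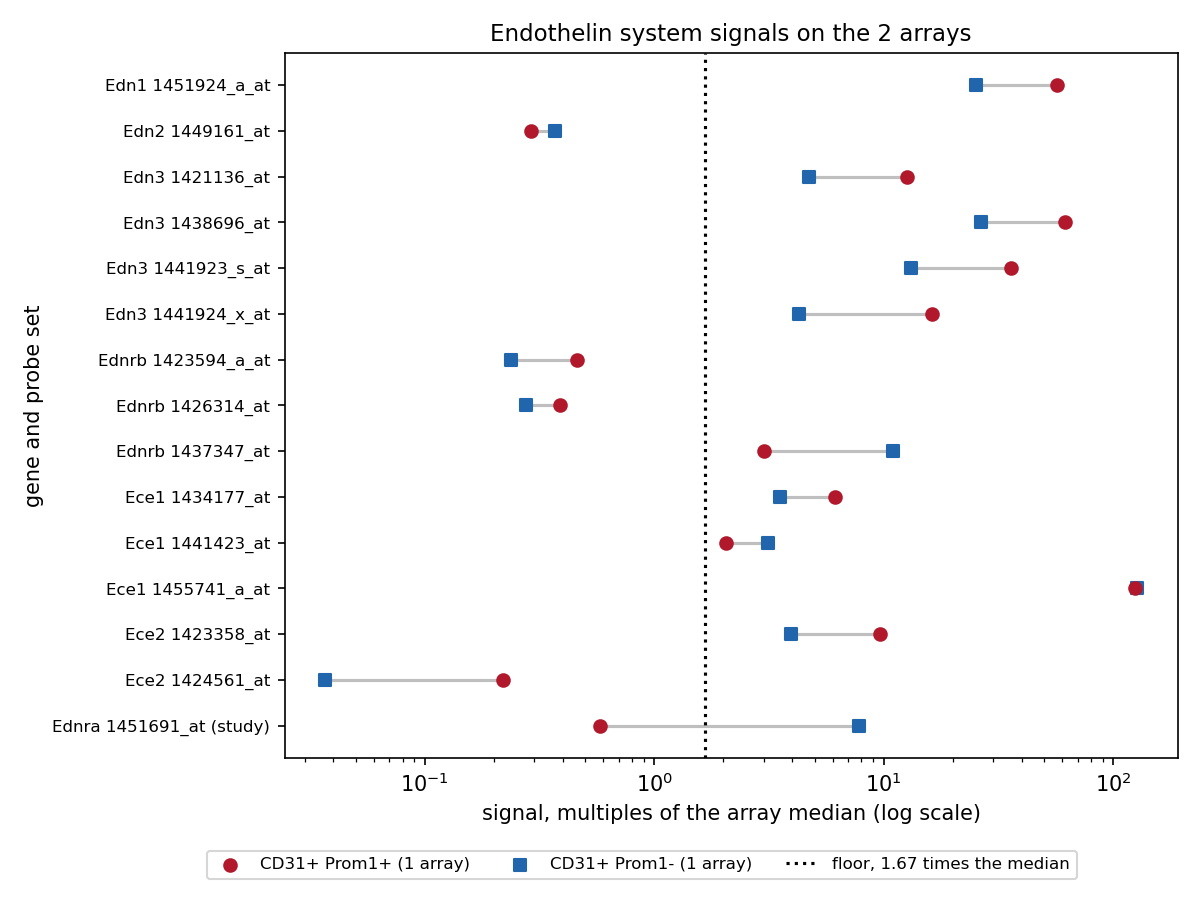
Signals of every endothelin system probe set, in multiples of the array median on a log axis, with 1 array each for CD31+ Prom1+ (red circles) and CD31+ Prom1- (blue squares) endothelium. The dotted line is the floor of 1.67 times the median, and the lowest row is the probe set that the study names for Ednra. The circles of Edn1, of all 4 Edn3 probe sets and of Ece2 1423358_at lie to the right of the squares, and that of Ednrb 1437347_at lies to the left.

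Endothelin 1, the principal constrictor peptide of endothelium, was measured by a single probe set (1451924_a_at). It had a signal of 56.7 in Prom1+ endothelium, against 25.2 in Prom1- endothelium. Both signals were far above the floor, and the Edn1 transcript was 2.25-fold higher in Prom1+ endothelium, a log2 ratio of 1.17. Of the 17488 probe sets measured on both arrays, 19.6% had a log2 ratio at least as high.

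Endothelin 3, which with its receptor Ednrb guides neural crest cells toward melanocytes and enteric neurons, was measured by 4 probe sets. Probe set 1441924_x_at had a signal of 16.3 in Prom1+ endothelium, against 4.28 in Prom1- endothelium, 3.81-fold higher. Probe set 1441923_s_at had a signal of 36 in Prom1+ and of 13.1 in Prom1- endothelium, 2.75-fold higher. The suffixes _x_at and _s_at mark designs whose probes may also bind other transcripts, so the Edn3 probe sets without such a suffix bear separately on the gene. Probe set 1421136_at had a signal of 12.7 in Prom1+ endothelium, against 4.72 in Prom1- endothelium, 2.70-fold higher. Probe set 1438696_at had a signal of 61.7 in Prom1+ and of 26.5 in Prom1- endothelium, 2.33-fold higher. All 4 probe sets of Edn3 thus ran in the same direction, with log2 ratios between 1.22 and 1.93 and an SD of 0.30 between them. Over 3930 genes with several measured probe sets, that SD was 0.54, which is a technical spread within this pair of arrays and says nothing of the spread between animals.

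Endothelin 2, the ligand best known from the gut and the ovary, was not measurable. Its probe set (1449161_at) had a signal of 0.291 on the Prom1+ array and of 0.368 on the Prom1- array. These values lie just above the highest Bacillus control of each array, and no fold is given for Edn2.

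Since Edn1 and Edn3 were higher on the same array, the sequence around the RefSeq transcription start is shown for both. It runs from 250 bases before that start to 30 bases from it, on the plus strand of GRCm38.p6. The Edn1 window is chr13:42301226-42301505 and the Edn3 window is chr2:174760369-174760648. Capitals mark matches, on either strand, to the GATA factor letters AGATAA, the hypoxia response core ACGTG, the AP-1 letters TGANTCA, the TATA box letters TATAAA or the GC box letters GGGCGG.
Edn1: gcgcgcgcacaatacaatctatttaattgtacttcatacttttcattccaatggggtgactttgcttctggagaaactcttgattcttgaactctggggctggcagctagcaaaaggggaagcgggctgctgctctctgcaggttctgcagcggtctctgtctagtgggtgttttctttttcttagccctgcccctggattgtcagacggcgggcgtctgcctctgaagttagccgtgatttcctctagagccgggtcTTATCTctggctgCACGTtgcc
Edn3: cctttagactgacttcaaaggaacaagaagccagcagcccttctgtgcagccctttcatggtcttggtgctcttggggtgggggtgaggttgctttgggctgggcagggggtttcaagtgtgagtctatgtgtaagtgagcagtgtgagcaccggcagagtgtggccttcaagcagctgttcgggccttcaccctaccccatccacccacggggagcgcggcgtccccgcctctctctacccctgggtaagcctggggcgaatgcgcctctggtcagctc

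The Edn1 window held the GATA letters on the opposite strand at positions 9 to 14 counted from the RefSeq start. It held the hypoxia core, also on the opposite strand, at positions 22 to 26. The Edn3 window held none of the 5 motifs. In windows of the same length at 32851 mouse transcription starts, the GATA letters were found in 10.7%, the hypoxia core in 18.5%, the AP-1 letters in 7.46%, the TATA box in 13.1% and the GC box in 34.7%. A match is a string of letters and was not tested as a binding site. The start used in these cells was not measured, and sequence outside the windows was not searched. The positions therefore refer to the RefSeq start only, and the absence of a motif to the window only.

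The endothelin receptors ran the other way from the ligands where they were measurable. The Ednrb probe set above the floor (1437347_at) had a signal of 3.0 in Prom1+ endothelium, against 11 in Prom1- endothelium, 3.67-fold lower, a log2 ratio of -1.87. Of the probe sets measured on both arrays, 0.944% had a log2 ratio at least as low. The other probe sets of Ednrb did not measure it. Probe set 1423594_a_at had a signal of 0.460 on the Prom1+ array and of 0.238 on the Prom1- array, and 1426314_at had a signal of 0.387 in Prom1+ and 0.275 in Prom1-. Both were under the floor on each array and close to the Bacillus controls, so the lower level of Ednrb in Prom1+ endothelium rests on 1 of its 3 probe sets.

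For Ednra, the receptor of smooth muscle and pericytes, the annotation lists no probe set, and none counts among the 14. The study names another probe set for this gene, which the annotation used here leaves unnamed. It had a signal of 0.581 on the Prom1+ array, under the floor, and 7.80 on the Prom1- array. By the floored signals it was at least 4.66-fold lower in Prom1+ endothelium. No other probe set in the annotation bears on it.

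Transcripts of the other cells that carry these receptors also differed between the arrays. Of 18 pericyte and smooth muscle genes, 15 were lower by 2-fold or more in Prom1+ endothelium, none was higher by 2-fold or more, and their signals summed to 650 times the median on the Prom1+ array and to 1920 times it on the Prom1- array. By gene, where the probe set of highest mean signal stands for each, 4.77% of 10793 genes were lower by 2-fold or more and 28.2% higher by 2-fold or more. Among these, the contractile gene Acta2 had a signal of 81.6 in Prom1+ and of 295 in Prom1- endothelium, and the intermediate filament gene Des had a signal of 2.77 in Prom1+ and of 16.0 in Prom1- endothelium. All 18 of these genes were above the floor on at least 1 array. With the hybridization controls of the arrays set equal, 4 of the 18 were lower by 2-fold or more, and their median log2 ratio was -0.70 in place of -1.73. That setting moved the median of all probe sets from 0.60 to 1.52. With loess correction of the ratio on signal, quantile normalization or a trimmed mean of 500, 16 of the 18 were lower by 2-fold or more. Their medians were then -1.91, -1.84 and -2.27. Their part in the lower Ednra signal was not tested, and in sorted bulk cells fewer cells of a type and less RNA per cell cannot be told apart.

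Astrocyte genes did not move together. Of 12, 6 were under the floor on both arrays, among them the defining markers Gfap and Aqp4. Another 2 were lower by 2-fold or more in Prom1+ endothelium, 1 was higher by 2-fold or more and 3 differed by less, and the 12 signals summed to 123 times the median on the Prom1+ array and to 117 times it on the Prom1- array. The largest part of both sums was Gja1, with a signal of 84.5 in Prom1+ and of 67.0 in Prom1- endothelium, so the sums mainly follow that gene. The calcium-binding protein gene S100b had a signal of 3.11 in Prom1+ and of 15.9 in Prom1- endothelium, 5.11-fold lower. The gap junction gene Gjb6 had a signal of 0.280 on the Prom1+ array, under the floor, and 3.57 on the Prom1- array, at least 2.13-fold lower. Fgfr3, a receptor gene for fibroblast growth factors, was 2.83-fold higher, with a signal of 12.8 in Prom1+ and of 4.52 in Prom1- endothelium. Of 11 oligodendrocyte lineage genes 2 were lower by 2-fold or more, 1 was higher by 2-fold or more and 6 were under the floor, Sox10 and Olig2 included. The 2 lower were Mbp, with 119 in Prom1+ and 271 in Prom1- endothelium, and Mobp, with 56.9 and 153. The 1 higher was Cnp, with 35.0 in Prom1+ and 12.3 in Prom1- endothelium. The 11 signals summed to 220 times the median on the Prom1+ array and to 439 times it on the Prom1- array. Microglial genes were lower by 2-fold or more for 9 of 11, and fibroblast and meningeal genes for 6 of 12, with Lum and Aebp1 under the floor on both arrays. Beside all these lists, 4.77% of all genes were lower and 28.2% higher by 2-fold or more. Their signals summed to 131 on the Prom1+ and 309 on the Prom1- array for microglia, and to 242 and 672 for fibroblast and meningeal genes. With the hybridization controls set equal, none of the microglial genes was lower by 2-fold or more, and their median log2 ratio was -0.25 in place of -1.18. With loess, quantile normalization or a trimmed mean of 500, all 11 were lower by 2-fold or more, with medians of -1.88, -1.76 and -1.65. Fibroblast and meningeal genes lower by 2-fold or more numbered 4 with the hybridization controls set equal. They numbered 8 with loess, quantile normalization or the trimmed mean. Of 11 neuron genes 6 were under the floor on both arrays and 2, Snap25 and Syt1, were lower by 2-fold or more. The neuron gene Stmn2, the only one over the floor on each array, had a signal of 79.5 in Prom1+ and of 45.1 in Prom1- endothelium, 1.76-fold higher, and the 11 signals summed to 81.9 times the median on the Prom1+ array and to 68.9 times it on the Prom1- array. Of 20 pan-endothelial genes all were above the floor on both arrays, 1 (Erg) was higher by 2-fold or more, and their median log2 ratio was 0.05. For all genes, which were not matched to them in signal, the median was 0.66. With the hybridization controls set equal, 12 of the 20 were higher by 2-fold or more, with a median of 1.07. With the trimmed mean of 500 their median was -0.5 and with loess 0.07. Equal endothelial content of the fractions is not shown by these values. The part of any of these cells in the Ednrb signal was not tested.

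Endothelin converting enzyme 1, the main activating enzyme of endothelial cells, gave no single direction. Probe set 1455741_a_at had a signal of 124 in Prom1+ endothelium, against 127 in Prom1- endothelium, 1.02-fold lower. Probe set 1434177_at had a signal of 6.13 in Prom1+ and of 3.53 in Prom1- endothelium, 1.74-fold higher, and 1441423_at had a signal of 2.06 in Prom1+ and of 3.12 in Prom1- endothelium, 1.51-fold lower. The SD of the 3 log2 ratios was 0.70, larger than the 0.54 typical of probe sets of 1 gene, and no Ece1 probe set passed the 2-fold rule. At the signal of 1455741_a_at few probe sets differed by 2-fold. Of the 1000 nearest in mean signal 0.10% were higher by 2-fold or more and 1.80% lower by 2-fold or more. The 3 probe sets did not share a direction and each population has 1 array, so equal levels of Ece1 are not shown.

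Endothelin converting enzyme 2, a relative that works at the acidic pH of secretory vesicles, was higher in Prom1+ endothelium by its measurable probe set. Probe set 1423358_at had a signal of 9.6 in Prom1+ endothelium, against 3.93 in Prom1- endothelium, 2.44-fold higher. The other probe set (1424561_at) had a signal of 0.220 on the Prom1+ array and of 0.0369 on the Prom1- array, under the floor on both. The mouse gene table also lists a read-through transcript name with the neighboring Eef1akmt4 for Ece2, so the probe set may not measure Ece2 alone.

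The folds of the ligands stood on a broad shift between the arrays. At a mean log2 signal of 3 to 4, where 1 of the Edn3 probe sets lies, the median log2 ratio of all probe sets was 0.87 and 40.2% were higher by 2-fold or more. At 5 to 6, where Edn1 lies, the median was 0.61 and 11.9% were higher by 2-fold or more. Each member was therefore set beside the 1000 measured probe sets nearest to it in mean signal. Around Edn1 the median fold was 1.61, and Edn1 was 1.40-fold above it. Around the 4 probe sets of Edn3 the median fold was between 1.59 and 1.79, and they were 1.46-fold, 1.54-fold, 1.54-fold and 2.14-fold above it. Ece2 was 1.38-fold above a local median of 1.77. The ligands and Ece2 thus stayed above probe sets of like signal, but only 1441924_x_at of Edn3 did so by 2-fold. Around the Ednrb probe set the local median was 1.80-fold in the opposite direction, so that Ednrb was 6.61-fold below it, and 5.70% of its neighbors were lower by 2-fold or more. Of Ece1, 1434177_at equaled its local median of 1.73, and 1441423_at was 1.92-fold below its local median of 1.27.

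**Figure D2:**
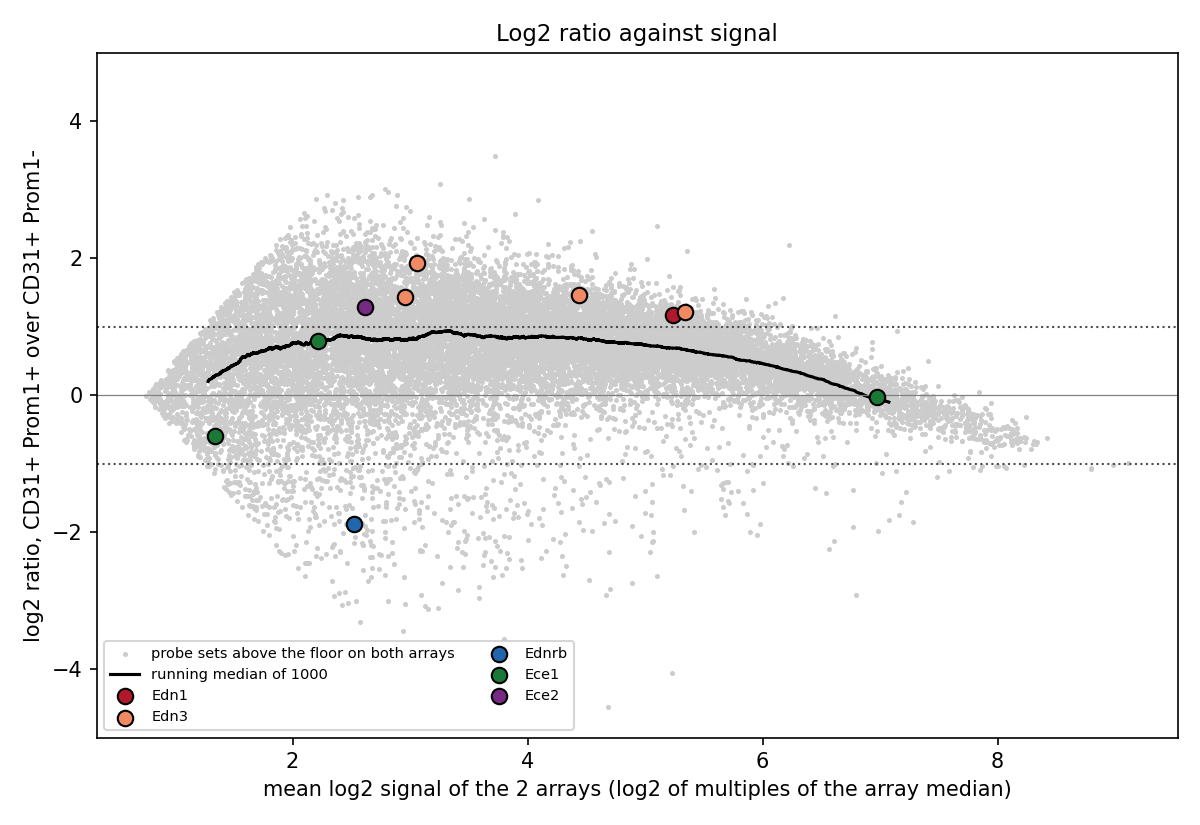
Log2 ratio of CD31+ Prom1+ over CD31+ Prom1- endothelium against mean log2 signal over both arrays, for the 17488 probe sets over the floor on each array (grey) and the 10 endothelin system probe sets among them (colored by gene). A running median over 1000 probe sets is drawn in black, and dotted lines mark 2-fold. Edn1, Edn3 and Ece2 lie above the black line, 1 probe set of Ece1 lies on it at a log2 ratio of 0.80, and Ednrb lies far below it at -1.87.

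The scaling of the arrays set which ligands passed the 2-fold rule. Only loess and quantile normalization could change the order of measured probe sets, since the other scalings shift every measured log2 ratio alike. Under both of these Ednrb stayed below the ligands. With loess correction of the ratio on signal, the log2 ratio was 0.50 for Edn1, 0.56 to 1.04 for the 4 probe sets of Edn3, 0.42 for Ece2 and -2.75 for Ednrb. With each array set to a trimmed mean of 500, it was 0.63 for Edn1, 0.67 to 1.38 for Edn3, 0.75 for Ece2 and -2.42 for Ednrb. With loess, with the trimmed mean and with quantile normalization, only 1441924_x_at of Edn3 remained higher by 2-fold or more. With the hybridization controls set equal, Edn1 was at 2.20, Edn3 at 2.24 to 2.95, Ece2 at 2.31 and Ednrb at -0.85. Edn1, Edn3 and Ece2 were above 0 and Ednrb below 0 under all 6 scalings. Of Ece1, 1434177_at was above 0 except with loess, at -0.04, and 1455741_a_at and 1441423_at were below 0 except with the hybridization controls, at 1.00 and 0.43. Setting those controls equal raises the log2 ratio of every measured probe set by the same amount, so a change of sign under it carries nothing specific to Ece1. The ratio of all probe sets shifted as well, from a median log2 ratio of 0.60 to 0.03 with loess, 0.07 with quantile normalization, 0.08 with the trimmed mean and 1.52 with the hybridization controls. With loess 6.26% of all probe sets were higher by 2-fold or more and 8.79% lower by 2-fold or more.

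**Figure D3:**
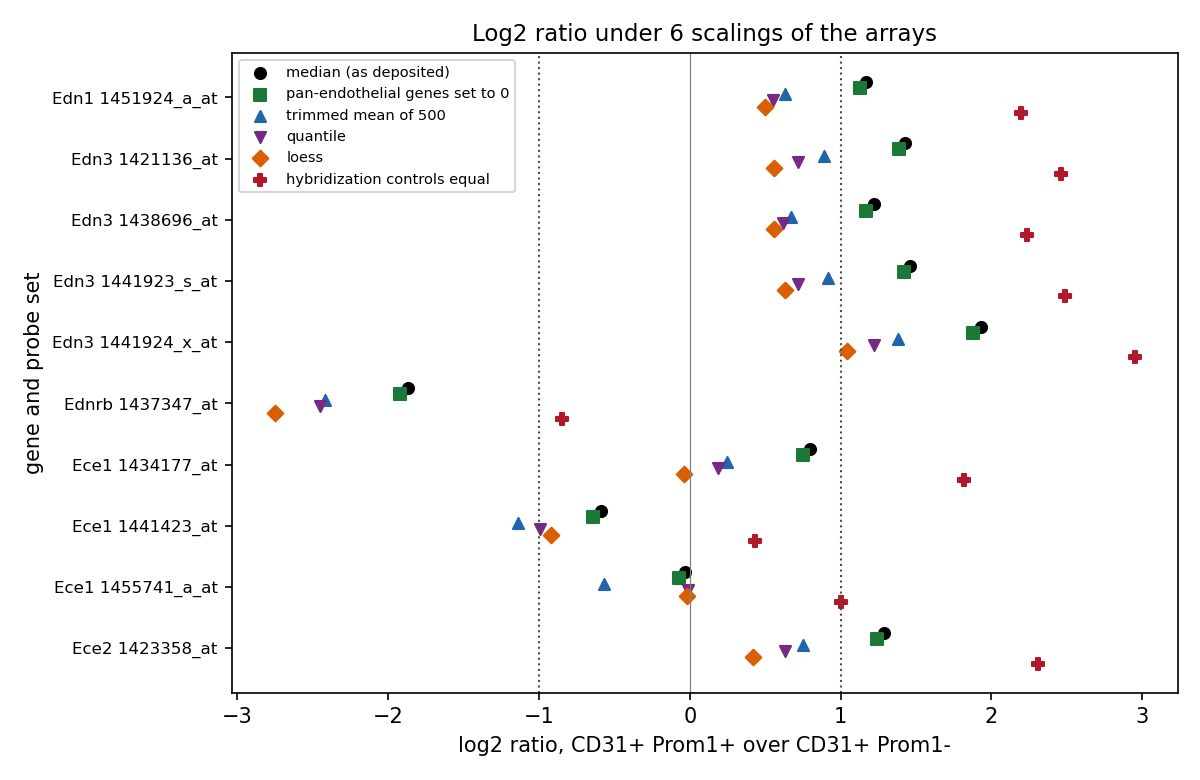
Log2 ratio of CD31+ Prom1+ over CD31+ Prom1- endothelium for the 10 measured probe sets under 6 ways of scaling the arrays (symbols), with dotted lines at 2-fold. Edn1 ran between 0.50 and 2.20 and Ednrb between -2.75 and -0.85, and neither crossed 0, while Ece1 1441423_at ran between -1.14 and 0.43.

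The proteases that act on endothelins before and after the converting enzymes were mostly not measurable. Of 12 genes for processing and clearance, 8 were under the floor on both arrays, among them neprilysin (Mme), which degrades endothelin, the Kell protease (Kel), which cleaves big endothelin 3 in humans, and the mast cell chymase Cma1. The precursor protease Furin had a signal of 85.0 in Prom1+ and of 76.5 in Prom1- endothelium, 1.11-fold higher. The related convertase Pcsk7 had a signal of 12.5 in Prom1+ and of 3.98 in Prom1- endothelium, 3.15-fold higher. Another convertase, Pcsk5, had a signal of 3.41 on the Prom1+ array and 1.31, under the floor, on the Prom1- array, at least 2.04-fold higher. These 2 convertases were the genes of the list higher by 2-fold or more, none was lower by 2-fold or more, and Ctsa, the carboxypeptidase cathepsin A, was 1.69-fold higher with a signal of 40.3 in Prom1+ and of 23.8 in Prom1- endothelium. The median log2 ratio of the 4 genes above the floor was 0.89, beside 0.66 for all genes, of which 28.2% were higher and 4.77% lower by 2-fold or more. With loess or quantile normalization, 0 genes of the list were higher by 2-fold or more.

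Genes through which endothelin receptors signal differed in both directions. Of 27 measured genes, 4 were higher by 2-fold or more in Prom1+ endothelium, 4 were lower by 2-fold or more and 19 differed by less, with a median log2 ratio of 0.57. Among all genes 28.2% were higher and 4.77% lower by 2-fold or more, so that the share of the list that was higher lay below that of all genes and the share that was lower lay above it. All genes were not matched to the list in signal, on which the ratio depends. With loess, 0 genes of the list were higher and 5 lower by 2-fold or more, with a median log2 ratio of -0.02. For all probe sets the loess values were 6.26%, 8.79% and 0.03. Of the G proteins, Gnai2 had a signal of 119 in Prom1+ and of 137 in Prom1- endothelium, and Gnas had a signal of 160 in Prom1+ and of 176 in Prom1- endothelium, each less than 2-fold apart. The inositol trisphosphate receptor Itpr2, which releases stored calcium, was 3.17-fold higher, with a signal of 21.0 in Prom1+ and of 6.61 in Prom1- endothelium. Rgs3, which switches G proteins off, was 3.04-fold higher, and the kinase Prkcd and the receptor adaptor Arrb1 were 2.23-fold and 2.24-fold higher. Other regulators of G protein signaling were lower. Rgs4 had a signal of 28.8 in Prom1+ and of 89.4 in Prom1- endothelium, 3.10-fold lower, and Rgs5, which is also in the pericyte list, had a signal of 95.9 in Prom1+ and of 206 in Prom1- endothelium, 2.15-fold lower. The kinase Prkca had a signal of 0.899 on the Prom1+ array, under the floor, and 5.37 on the Prom1- array, at least 3.21-fold lower. Trpc1, a cation channel, was 2.34-fold lower. Prkcd, Arrb1 and Trpc1 were chosen after their values were seen.

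Transcription factors that act on the Edn1 promoter mostly differed by less than 2-fold. Of 23 genes, 20 were above the floor and Fosl1, Pparg and Ppara were under it on both arrays. Of the 20, 4 were higher by 2-fold or more in Prom1+ endothelium, none was lower by 2-fold or more and 16 differed by less, beside 28.2% higher and 4.77% lower among all genes. Their median log2 ratio was 0.37, beside 0.66 for all genes, which were not matched to the list in signal. With loess the list median was 0.10, beside 0.03 for all probe sets. The AP-1 subunit Junb was 2.43-fold higher, with a signal of 28.9 in Prom1+ and of 11.9 in Prom1- endothelium. Smad2, a mediator of TGF-beta signals, was 2.64-fold higher, with a signal of 15.6 in Prom1+ and of 5.92 in Prom1- endothelium. Smad3 was 2.15-fold and Foxo1 2.23-fold higher. At the other end, the AP-1 subunit Jund had a signal of 129 in Prom1+ and of 255 in Prom1- endothelium, 1.97-fold lower, Fos had a signal of 150 in Prom1+ and of 234 in Prom1- endothelium, and the hypoxia factor Epas1 had a signal of 191 in Prom1+ and of 263 in Prom1- endothelium. Gata2, which binds the Edn1 promoter through a GATA element, had a signal of 146 in Prom1+ and of 149 in Prom1- endothelium, a range of signal in which 2-fold differences were rare. Smad3, Foxo1 and Gata2 were chosen after their values were seen.

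**Figure D4:**
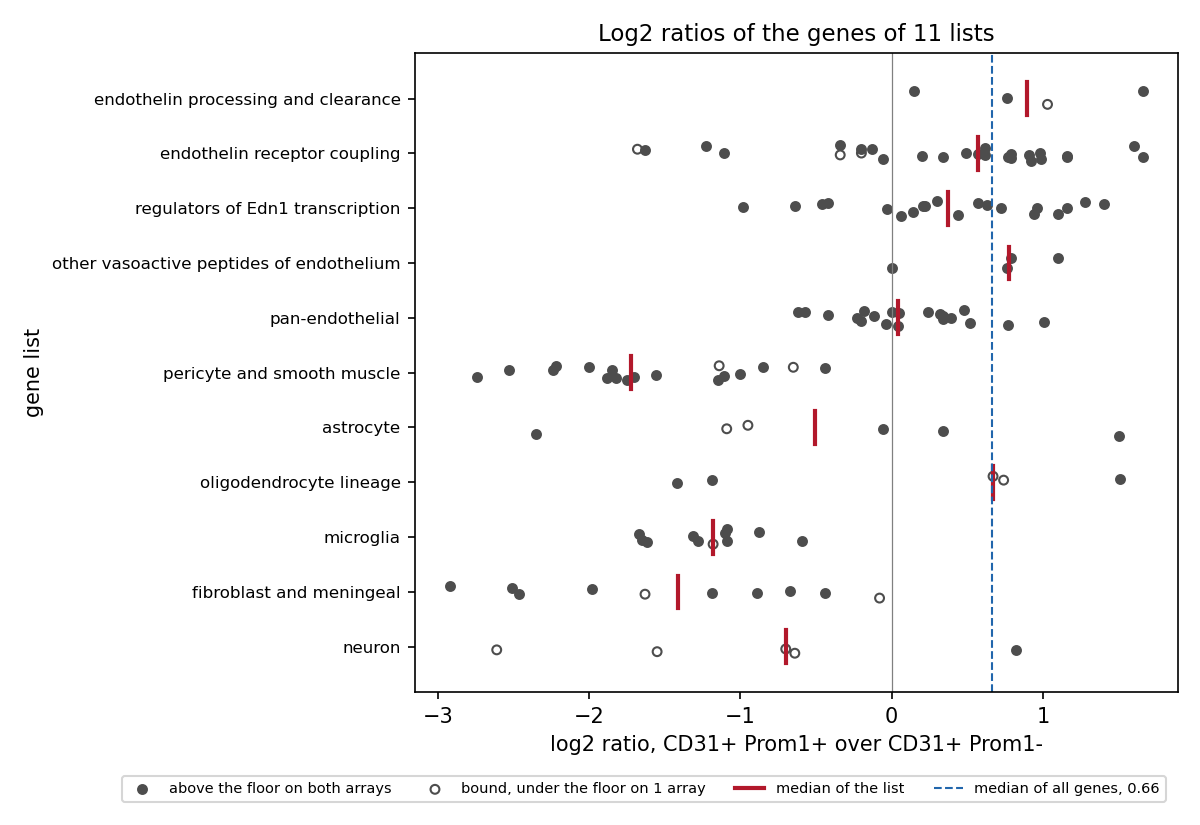
Log2 ratio of CD31+ Prom1+ over CD31+ Prom1- endothelium for the genes of 11 lists, 1 point per gene, with open points for bounds and red bars for list medians. The dashed line is the median of all genes, 0.66. The receptor coupling genes spread on either side of 0 around a median of 0.57, and the pericyte and smooth muscle genes lie below 0 with a median of -1.73.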

How the data were processed

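Total RNA of each sorted population was amplified, labeled with biotin and hybridized to 1 array. The authors acquired images in the GeneChip Operating Software, set every array to a target signal of 500 and normalized in GeneSpring, and the submitters' processing notes name MAS5. Each deposited value is a log2 signal relative to the median of its array, with a median of 0.0 and a lowest value of -6.64 in both columns. Detection calls were not used here.

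A floor of 100 on that target scale equals 1.67 times the median when the 2% trimmed means of the arrays are averaged, and 44.6% of probe sets in the Prom1+ array and 42.9% of those in the Prom1- array reached it. Names came from the platform annotation (34958 with 1 symbol, 932 with several, 9211 not listed), and 34754 identifiers matched the mouse gene table of GRCm38.p6, the 14 members included. Promoter sequences are from RefSeq. The named genes are all members, Prom1, Pecam1, the probe set the study names for Ednra, and from each list up to 3 genes of highest mean signal and 2 with the largest ratio each way. Other genes of the lists, among them all those named as under the floor on both arrays, were chosen after their values were seen. With 2 arrays no gene was sought for a pattern like that of a member. The members and lists were chosen with earlier results of these data known. Alternatives were other floors (50, 200, none), thresholds (1.5-fold, 3-fold), scalings, probe set choices and the mean over the probe sets of a gene. Loess used a span of 0.2. The 2-fold rule after loess correction was tested on simulated data with every probe set above the floor on both arrays. No criterion was set there for the floor or for the 2-fold rule without loess. Computations used pandas 2.3.3 and numpy 2.4.6 in Python 3.11.15, with scipy 1.17.1 for trimmed means, statsmodels 0.14.6 for loess and matplotlib 3.10.9 for plots. Precision is limited by the number of arrays.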

Additional observations from a re-analysis of the deposited data

How the results depend on the processing

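The count of 6 endothelin probe sets at least 2-fold higher in Prom1+ endothelium became 1 with the trimmed mean of 500, quantile normalization, loess or a 3-fold threshold, and was 4 to 7 under the other alternatives. The count of 1 lower became 2 with a 1.5-fold threshold or the trimmed mean and 0 with the hybridization controls set equal, and was 1 otherwise. With no floor, 1 more probe set, of Ece2, entered the higher count at signals near those of the Bacillus controls. Averaged over probe sets, the log2 ratio was 1.51 for Edn3 and 0.06 for Ece1. The processing, coupling, transcription and vasoactive lists had 4, 27, 20 and 4 genes above the floor. Of these together, 11 were higher by 2-fold or more. This became 27 with a 1.5-fold threshold, 3 with a 3-fold threshold or the trimmed mean, 0 with quantile normalization or loess and 39 with the hybridization controls. The share of all probe sets that were higher moved in the same direction. From 26.4% it became 50.7% with the 1.5-fold and 6.42% with the 3-fold threshold. With the trimmed mean, quantile normalization, loess and the hybridization controls it was 8.12%, 6.99%, 6.26% and 72.1%. The higher counts of endothelin probe sets stand beside the same shares. The 4 lower became 2 with a 3-fold threshold or a floor of 200, 7 with the trimmed mean, 8 with no floor and 1 with the hybridization controls. For all probe sets the share lower was 5.16%, and it was 2.38%, 3.26%, 9.31%, 21.0% and 1.77% in these settings. No paired analysis was possible because each population has 1 array. No array could be left out for the same reason. Levels under the floor were not measurable, and at a mean log2 signal of 7 to 8 no probe set was higher by 2-fold or more and 2.6% were lower.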

Other observations

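Other vasoactive factors of endothelium were measurable for 4 of 9 genes. Nos3, the endothelial nitric oxide synthase, had a signal of 51.8 in Prom1+ and of 24.1 in Prom1- endothelium, 2.15-fold higher. The vasodilator peptide adrenomedullin (Adm) had a signal of 63.7 in Prom1+ and of 37.6 in Prom1- endothelium, and the angiotensin converting enzyme Ace had a signal of 10.6 in Prom1+ and of 6.17 in Prom1- endothelium, 1.69-fold and 1.73-fold higher. Neurotensin (Nts) lay just above the floor on both arrays, at 1.97 in Prom1+ and 1.98 in Prom1-. Apelin (Apln), the natriuretic peptide gene Nppc, Vip, Calcb and the angiotensin precursor Agt were under the floor on both. The median log2 ratio of the 4 was 0.77, beside 0.66 for all genes.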
